A study of Danio rerio with 18 samples.

Results

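The genes described here are those of the proteasome, taken as every Ensembl gene whose zebrafish name starts with psma, psmb, psmc, psmd, psme, psmf or psmg. Of the 31624 genes in the count table, 56 carried such a name, and the 51 with at least 50 counts summed over the 18 libraries were kept. All 51 passed the low-count filter that left 15722 genes in the test, and each had counts in all 18 libraries. By role they comprise 10 α-ring genes and 7 standard β-ring genes of the 20S core, 7 ATPase and 12 non-ATPase genes of the 19S cap, 1 inducible β gene (psmb10), 5 activator genes (psme1, psme2, psme3, psme4 and psme4a), 1 inhibitor gene (psmf1), 3 assembly chaperones of the core (psmg1, psmg2 and psmg3) and 3 of the cap (psmd5, psmd9 and psmd10). A further pair, psmc3ip and psme3ip1, share the name but code for a meiotic recombination factor and a binding partner of psme3, and are not subunits. The 36 genes of the first 4 classes are called the 26S subunit genes below. The choice rests on names and on the minimum of 50 counts, which used no difference between groups and left out psmb8, psmb9, psmb11b, psmb12 and psmb13a.

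The proteasome degrades proteins that carry a ubiquitin chain. Its barrel-shaped core is built of outer α rings, which gate the entrance, and inner β rings, which hold the protease sites, and its cap recognises the tagged protein, removes the ubiquitin, unfolds the protein with a ring of ATPases and feeds it into the barrel. In mammals, interferon replaces the catalytic β subunits with inducible ones (psmb8, psmb9 and psmb10), giving the immunoproteasome that makes peptides for MHC class I, and transcription factors such as nfe2l1 raise the standard subunit genes as a set when proteasome activity falls short.

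Whole larvae of the AB zebrafish strain, given as first-feeding stage in the labels, were sampled after 24 h in water with lipopolysaccharide (LPS) of Pseudomonas aeruginosa, a bacterial cell wall component, or with a saline control and no LPS. Embryos had been kept at 24 or 32 °C and the larvae were challenged at either temperature. Groups are named by incubation and challenge temperature (24 × 24 °C, 24 × 32 °C and 32 × 24 °C). Each of the 3 combinations had 3 LPS-challenged and 3 control libraries, each from a pool of 5 larvae, so that there were 6 groups of 3. The LPS dose is 10 mg/L in the labels, while the methods give the same number per litre in µg. The study asked how both temperatures shape the larval response to LPS. Larvae kept at 32 °C reached first feeding sooner, so age and incubation temperature cannot be told apart. Larvae of the 24 × 32 °C and 32 × 24 °C combinations had their water warmed or cooled over some hours from first feeding on, before the challenge began, in the control groups too. The LPS pools hold survivors only, and what the unequal deaths did to these values was not tested. The study repeated its experiment with other brood fish, but the sources do not tie single libraries to a repeat, so the p-values measure the spread between these pools, whichever they came from. In whole larvae, fewer cells of a type and less RNA per cell cannot be told apart.

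Levels are given as CPM (counts scaled to a common library size) on library sizes scaled by the trimmed mean of M values (TMM), and replicate values stand in the order of library 1, 2 and 3. Libraries held between 1868228 and 8261920 counts, of which 4172 to 22498 fell on the 51 proteasome genes. Depth differed between the groups, with 5075072 to 8261920 counts in the 24 × 24 °C controls and 2405212 to 2897261 in the 24 × 32 °C controls. Replicate libraries differed by more than counting noise in every group, with a chi-square of 1.96 to 25.9 per degree of freedom between pairs. A gene is called here, as up-regulated or down-regulated, at a Benjamini-Hochberg adjusted p under 0.05 over all 15722 genes, from edgeR's quasi-likelihood test. Gene length was not available, so levels are compared between groups and not between genes. Copies of one subunit (psma6 and psma6a, psmd4 and psmd4b, both psmd11 rows, psme4 and psme4a, psmc1 and psmc1b, psma2 and psma2a) may share reads, which makes their separate values uncertain.

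The most marked pattern was a lower level of 26S subunit mRNA in unchallenged larvae warmed to 32 °C. The 36 genes summed to 2319, 2261 and 2352 CPM in the 24 × 24 °C controls and to 1492, 1739.99 and 1755 CPM in the 24 × 32 °C controls. All 3 warmed pools were below all 3 pools held at 24 °C, with group means of 1662 ± 148 and 2311 ± 46.2 CPM (SD, n = 3) and a ratio of 0.720. The 4 classes stood at nearly the same ratio, 0.725 for the α ring, 0.723 for the standard β ring, 0.716 for the ATPases and 0.715 for the non-ATPase genes. LPS-challenged larvae of the same temperature combination had sums of 2143, 2096 and 2369 CPM, above every one of their own controls, at a ratio of 1.32. These sums overlapped those of the 24 × 24 °C controls. On plain library totals without TMM they were 1974, 1930 and 2247 CPM, all below the 2374, 2268 and 2422 CPM of the 24 × 24 °C controls. In the 32 × 24 °C controls the sum was higher than at 24 × 24 °C, with 2902, 2602 and 2687 CPM, a ratio of 1.18 and no overlap between the groups. LPS-challenged larvae had 2389, 2345 and 2065 CPM at 24 × 24 °C and 2379, 2624 and 2846 CPM at 32 × 24 °C, overlapping their own controls in both cases.

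**Figure D1:**
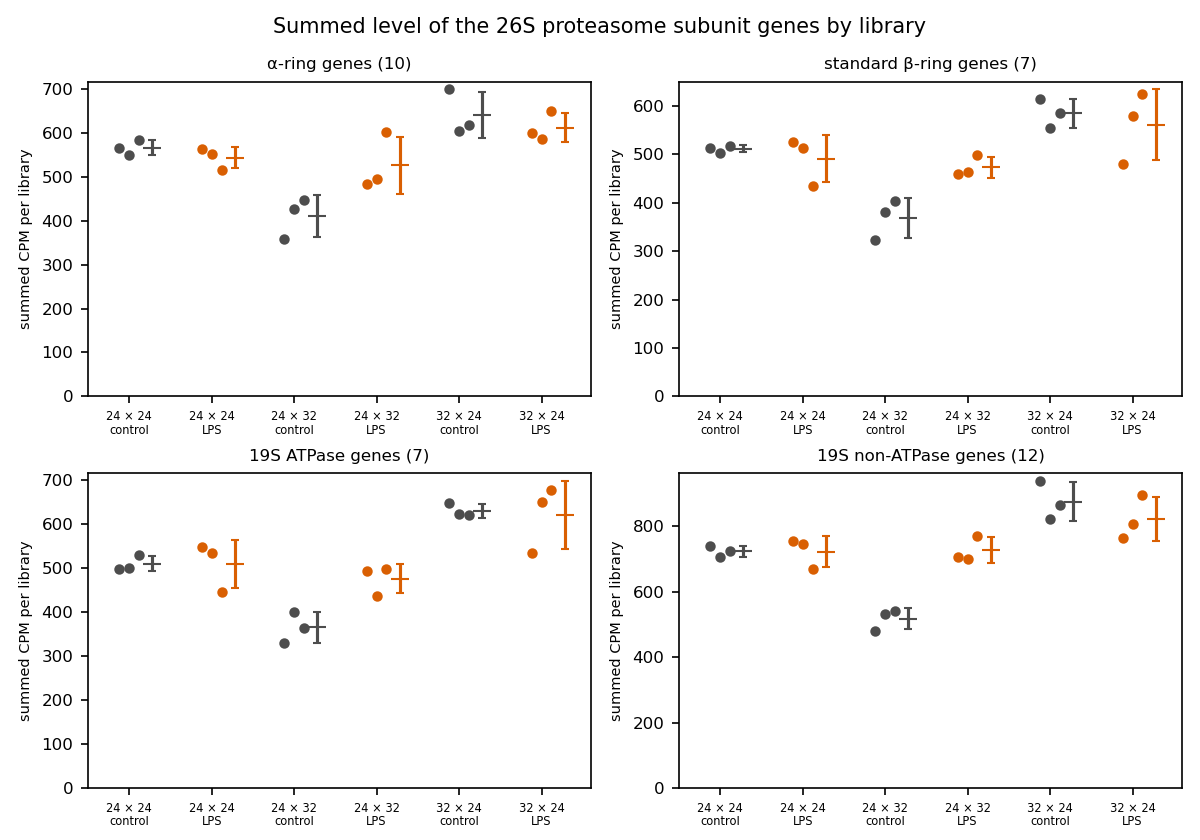
Summed CPM of the 26S subunit genes in each library (points), by class and group, with the mean and SD (n = 3) beside them. In all 4 classes the 24 × 32 °C controls lie below the 24 × 24 °C controls, by ratios of 0.715 to 0.725, and the 32 × 24 °C controls have the highest mean.

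The order of the group means was alike from gene to gene. The 24 × 32 °C controls had the lowest mean of the 6 groups in 33 of the 36 26S subunit genes, a position they held in 22.8% of all genes tested. The 32 × 24 °C controls had the highest mean in 25 of the 36, against 19.7% of all genes. These counts describe an order and carry no test, since neighbouring groups often differed by less than the spread between their libraries.

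The warming of unchallenged larvae was tested as the 24 × 32 °C controls against the 24 × 24 °C controls. Of the 51 proteasome genes 18 were called, all of them down-regulated, where 3.86% of all genes tested were called lower and 4.13% higher. All 18 were among the 36 26S subunit genes, and none of the other 15 was called. The median log2 fold change was -0.46 over the 36, with a range of -0.88 to 0.00, and -0.32 over the other 15, while that of all genes tested was 0.00. Of the 18 calls, 12 also reached a fold change of 1.5, where 3.20% of all genes were called lower by as much. The 2 groups of libraries did not overlap in 34 of the 51 genes. Of these 33 were lower in the warmed larvae, where 16.6% of all genes were lower without overlap, and 1 (psmg3) was higher, where 16.7% were. Log2 fold changes of the 36 had an SD of 0.19, beside a median SE of 0.15, so that single genes cannot be ranked closely.

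Among the α-ring genes, which form the outer gated rings, 4 of 10 were called. The psma6a level was 39.1, 41.5 and 33.3 CPM at 24 × 24 °C and 19.03, 19.6 and 23.5 CPM at 24 × 32 °C. All 3 warmed pools were low, and the log2 fold change was -0.88 ± 0.16 (SE; edgeR adjusted p = 0.00221). For psma3 the levels were 57.5, 63.1 and 62.8 CPM and, after warming, 34.7, 37.6 and 45.1 CPM. The groups did not overlap, at a log2 fold change of -0.65 ± 0.15 (SE; edgeR adjusted p = 0.0123). The remaining calls were psma4 at -0.60 (edgeR adjusted p = 0.0239) and psma8 at -0.54 (edgeR adjusted p = 0.0226), the latter a row for which RefSeq also lists the name psma7. Of the uncalled α genes, psma1, psma2, psma2a, psma5, psma6 and psma6l had log2 fold changes between -0.43 and -0.15.

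Among the standard β genes 4 of 7 were called, but only 1 of the 3 that hold a protease site. That gene was psmb5, which carries the chymotrypsin-like site, with 60.8, 57.4 and 59.7 CPM at 24 × 24 °C and 28.7, 29.6 and 42.2 CPM at 24 × 32 °C. All warmed pools were below all pools at 24 °C, and the log2 fold change was -0.83 ± 0.19 (SE; edgeR adjusted p = 0.0104). The other catalytic genes were not called, psmb6 (caspase-like site) at -0.25 (edgeR adjusted p = 0.327) and psmb7 (trypsin-like site) at -0.35 (edgeR adjusted p = 0.0901). The structural β genes psmb3 at -0.61 (edgeR adjusted p = 0.0153), psmb4 at -0.54 (edgeR adjusted p = 0.0156) and psmb1 at -0.58 (edgeR adjusted p = 0.0218) were down-regulated, and psmb2 was not called at -0.32 (edgeR adjusted p = 0.156). Whether the catalytic genes differ from each other in their response was not tested.

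Of the ATPase genes, whose products unfold the substrate, 5 of 7 were down-regulated. The psmc6 level was 57.7, 60.8 and 60.5 CPM at 24 × 24 °C and 33.6, 42.6 and 40.3 CPM after warming, a log2 fold change of -0.62 ± 0.13 (SE; edgeR adjusted p = 0.00499). For psmc1b the levels were 59.1, 55.3 and 61.2 CPM and 36.9, 40.7 and 29.3 CPM, with a log2 fold change of -0.71 ± 0.16 (SE; edgeR adjusted p = 0.0099). In neither gene did the groups overlap. The psmc3 level fell from 66.97, 67.5 and 72.8 CPM to 37.7, 49.9 and 48.4 CPM, again without overlap, at -0.61 ± 0.16 (SE; edgeR adjusted p = 0.0235). The remaining calls were psmc1 at -0.53 (edgeR adjusted p = 0.0195) and psmc5 at -0.46 (edgeR adjusted p = 0.0468), while psmc2 (-0.37) and psmc4 (-0.22) were not called.

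Of the 12 non-ATPase genes 5 were down-regulated, and these included the scaffold of the cap base and several lid genes. For psmd1, the large base subunit on which ubiquitin receptors dock, the levels were 120.3, 110.2 and 121 CPM at 24 × 24 °C and 80.98, 79.5 and 70.98 CPM at 24 × 32 °C. The warmed pools were all lower, with a log2 fold change of -0.60 ± 0.11 (SE; edgeR adjusted p = 0.00311). The lid gene psmd8 had 80.2, 80.5 and 82.6 CPM in the controls at 24 °C and 34.7, 51.8 and 57.1 CPM in the warmed ones, at -0.77 ± 0.16 (SE; edgeR adjusted p = 0.00678). The lid gene psmd3 had 80.2, 78.7 and 77.2 CPM and 42.9, 55.3 and 51.8 CPM, at -0.66 ± 0.13 (SE; edgeR adjusted p = 0.00553). Both lid genes were lower in every warmed pool, and the first of the warmed libraries was the lowest in each. The gene psmd7, whose product pairs with the deubiquitinase psmd14 in the lid, had 72.6, 66.7 and 67.9 CPM and 32.8, 48.7 and 48.4 CPM, at -0.68 ± 0.15 (SE; edgeR adjusted p = 0.00858), again with all warmed pools low, and psmd14 itself was called at -0.43 (edgeR adjusted p = 0.0444). The ubiquitin receptor gene psmd4 had a log2 fold change of 0.00 with a 95% interval of -0.30 to 0.31, and its copy psmd4b was at -0.47 (edgeR adjusted p = 0.0664). The uncalled psmd6, psmd12, psmd13 and both psmd11 rows lay between -0.46 and -0.29.

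**Figure D2:**
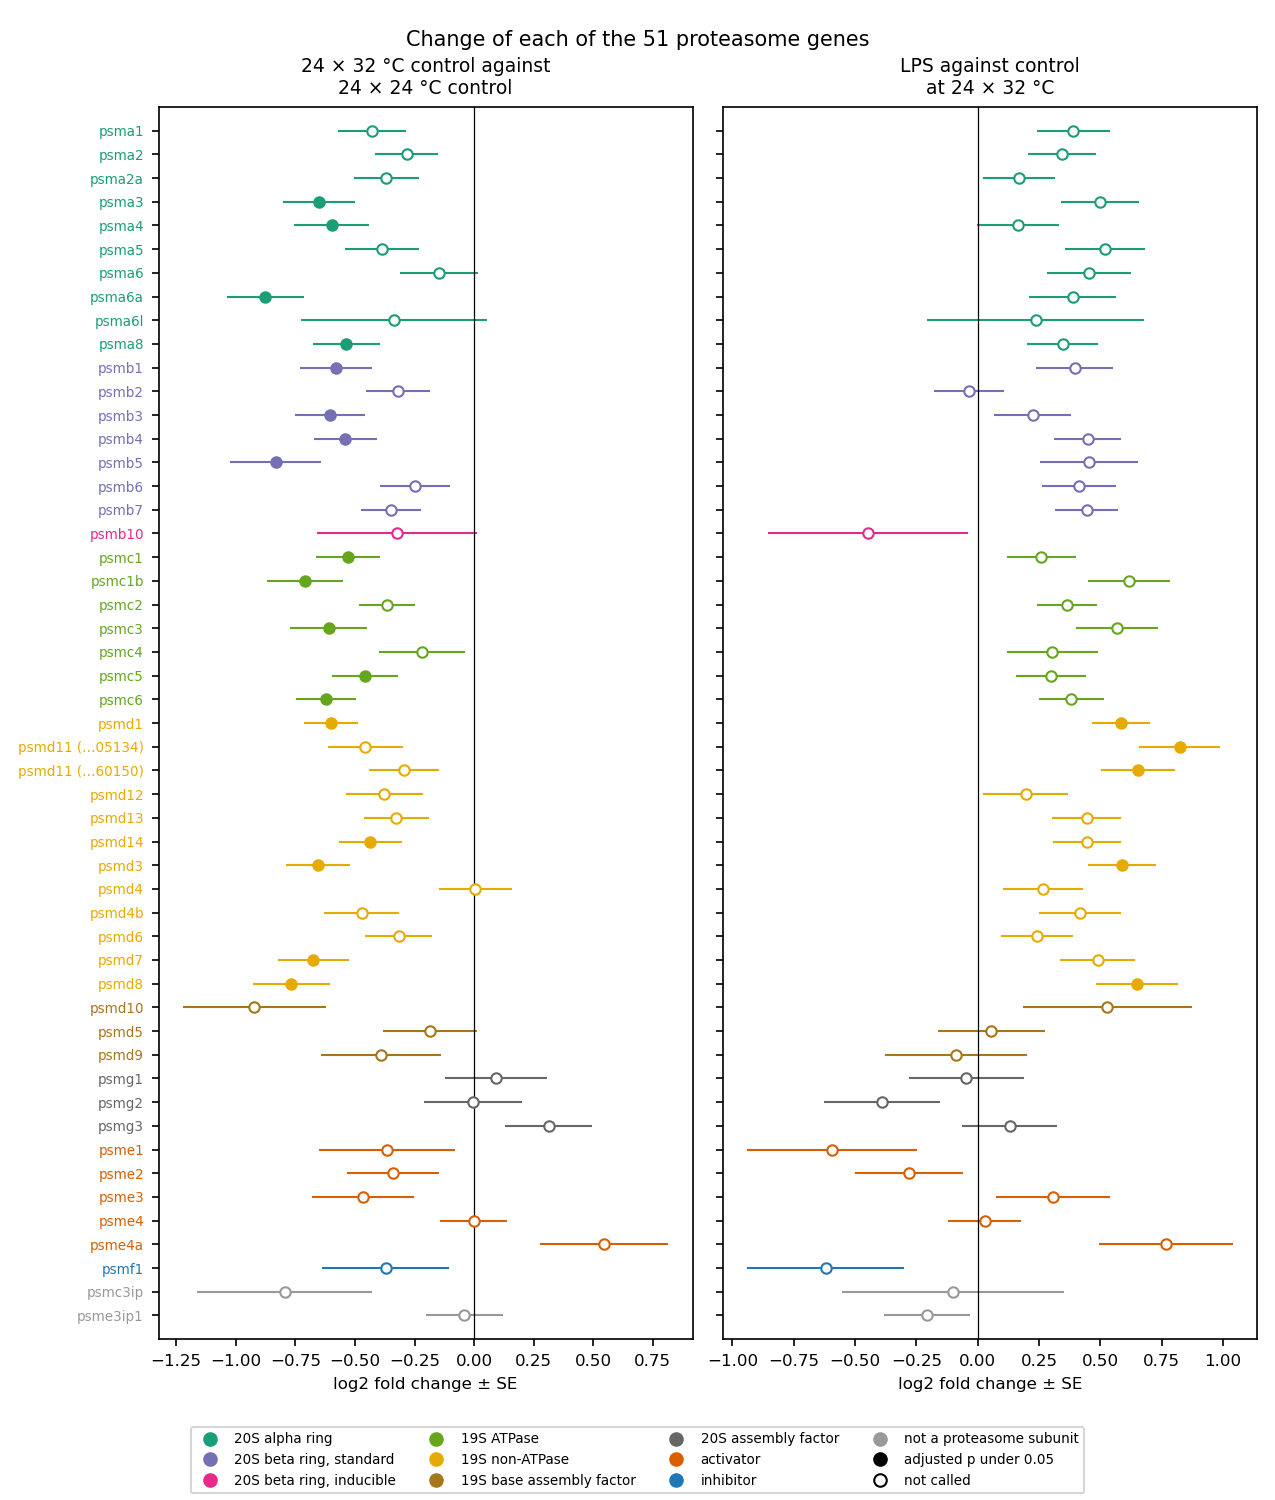
Log2 fold change with its SE for each of the 51 proteasome genes, coloured by class, for warming in controls (left) and for LPS at 24 × 32 °C (right), where filled points mark adjusted p under 0.05. On the left 18 points are filled, all below 0 and all 26S subunit genes, and on the right 5 are filled, all above 0 and all non-ATPase genes; both panels use the same 24 × 32 °C controls.

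How many of these calls were made depended on the libraries. Without control library 1 of 24 × 32 °C 6 proteasome genes were called, without control library 1 of 24 × 24 °C 10, and without control library 3 of 24 × 24 °C 8. When each of the 18 libraries was left out in turn, psma6a, psmd1, psmc6, psmd3 and psmd8 were called each time. The calls of psmc5 and psmd14 were lost in 11 and 12 of these fits, whichever library of the comparison was left out. On plain library totals without TMM the median of all genes in this comparison was -0.19 and that of the 51 proteasome genes -0.57, which left -0.38 relative to all genes. Some tissue markers moved with the comparison too. Of 15 tissue marker genes tested 3 were called higher and 1 lower in the warmed controls, beside 4.13% and 3.86% of all genes. Skeletal muscle markers summed to 31803 to 34547 CPM at 24 × 24 °C and to 40966 to 47468 CPM at 24 × 32 °C. Lens markers summed to 2206 to 2404 CPM and 3378 to 3984 CPM, and skin keratins to 7894 to 10308 CPM and 11555 to 16980 CPM. Photoreceptor markers summed to 3118 to 3408 CPM and 2823 to 2902 CPM, and the neutrophil marker was at 51.8 to 68.7 CPM and 11.9 to 34.1 CPM. Liver, exocrine pancreas, macrophage and germ cell markers overlapped between the groups. The only globin row matched was at or under 0.480 CPM in all libraries of both groups, and other globin genes were not looked at. The part of these tissues in the proteasome values was not tested.

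In LPS-challenged larvae of the 24 × 32 °C combination 5 of the 51 proteasome genes were up-regulated against their own controls and none was down-regulated, beside 1.48% of all genes higher and 0.674% lower. All 5 were non-ATPase genes of the cap. The median log2 fold change was 0.40 over the 36 26S subunit genes, with a range of -0.04 to 0.82, and -0.09 over the other 15, against 0.00 over all genes. Of the 5, 4 also reached a fold change of 1.5, where 1.36% of all genes were called higher by as much. All 3 challenged pools were above all 3 controls in 24 genes, each of them a 26S subunit gene, where 10.0% of all genes were higher without overlap. The controls of this comparison are the same 3 libraries that entered the warming comparison as the low group, so the results of both are not independent.

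The called genes were psmd1, psmd3, psmd8 and both psmd11 rows. The psmd1 level was 80.98, 79.5 and 70.98 CPM in controls and 111, 122 and 114 CPM in challenged larvae, a log2 fold change of 0.58 ± 0.12 (SE; edgeR adjusted p = 0.0123). In the first psmd11 row (ENSDARG00000005134), a lid gene, the levels were 22.8, 19.6 and 26.9 CPM and 42.4, 32.3 and 47.6 CPM, with a log2 fold change of 0.82 ± 0.17 (SE; edgeR adjusted p = 0.0125). In the second (ENSDARG00000060150) they were 38.8, 35.7 and 35.97 CPM and 53.5, 50.3 and 70.12 CPM, at 0.65 ± 0.15 (SE; edgeR adjusted p = 0.0254). All challenged pools lay above all controls in these 3 rows, and library 3 of the challenged larvae was the highest in both psmd11 rows. For psmd3 the challenged level was 72.1, 82.2 and 70.6 CPM beside the control values given above, at 0.59 ± 0.14 (SE; edgeR adjusted p = 0.0294). For psmd8 it was 74.97, 64.6 and 85.1 CPM, at 0.65 ± 0.17 (SE; edgeR adjusted p = 0.046). These genes did not overlap between the groups either.

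Among the genes short of the threshold, psmc1b had 48.2, 53.4 and 62.6 CPM after LPS and a log2 fold change of 0.62 ± 0.17 (SE; edgeR adjusted p = 0.0548), psmb7 was at 0.45 (edgeR adjusted p = 0.0741) and psmc3 at 0.57 (edgeR adjusted p = 0.0797). The lid gene psmd7 was at 0.49 (edgeR adjusted p = 0.102), psmc6 at 0.38 (edgeR adjusted p = 0.137), psma3 at 0.50 (edgeR adjusted p = 0.103), psmb5 at 0.45 (edgeR adjusted p = 0.255) and psma6a at 0.39 (edgeR adjusted p = 0.270). The remaining 26S subunit genes lay between -0.04 for psmb2 and 0.52 for psma5, and 26 of all 51 had an unadjusted p under 0.05 in the direction of higher levels, where 9.62% of all genes did. By class, the summed levels of challenged larvae stood at 1.28 (α ring), 1.28 (standard β ring), 1.30 (ATPases) and 1.40 (non-ATPase genes) times those of the controls. Whether the non-ATPase class differs from the others was not tested.

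None of the 5 calls was made in every one of the fits that left out a library, and that of psmd8 was lost in 14 of the 18. Without control library 2 of 24 × 32 °C no proteasome gene was called, without control library 1 there were 2, and without control library 3 there was 1. Without LPS library 1 or LPS library 3 of the same temperatures 3 were called, and without LPS library 1 of 32 × 24 °C 8 were. The adjusted p ranged over these fits from 0.0082 to 0.0742 for psmd1, 0.004 to 0.0859 and 0.0129 to 0.123 for the psmd11 rows, 0.0182 to 0.140 for psmd3 and 0.0352 to 0.203 for psmd8. With the 6 libraries of the comparison alone 1 was called, beside 298 of all genes, and DESeq2 called 7 proteasome genes. Of the 15 tissue markers 2 were lower and none higher in challenged larvae, beside 0.674% and 1.48% of all genes. Skeletal muscle was at 36878 to 41139 CPM, lens at 2153 to 2869 CPM, skin keratins at 6006 to 8771 CPM and the neutrophil marker at 7.55 to 14.1 CPM. The globin row matched was at 0. Skeletal muscle, neutrophil, liver, exocrine pancreas, photoreceptor and macrophage markers overlapped with those of the controls. Germ cell markers summed to 1.153 to 1.323 CPM, just above the 0.959 to 1.152 CPM of the controls. The part of these tissues was not tested.

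**Figure D3:**
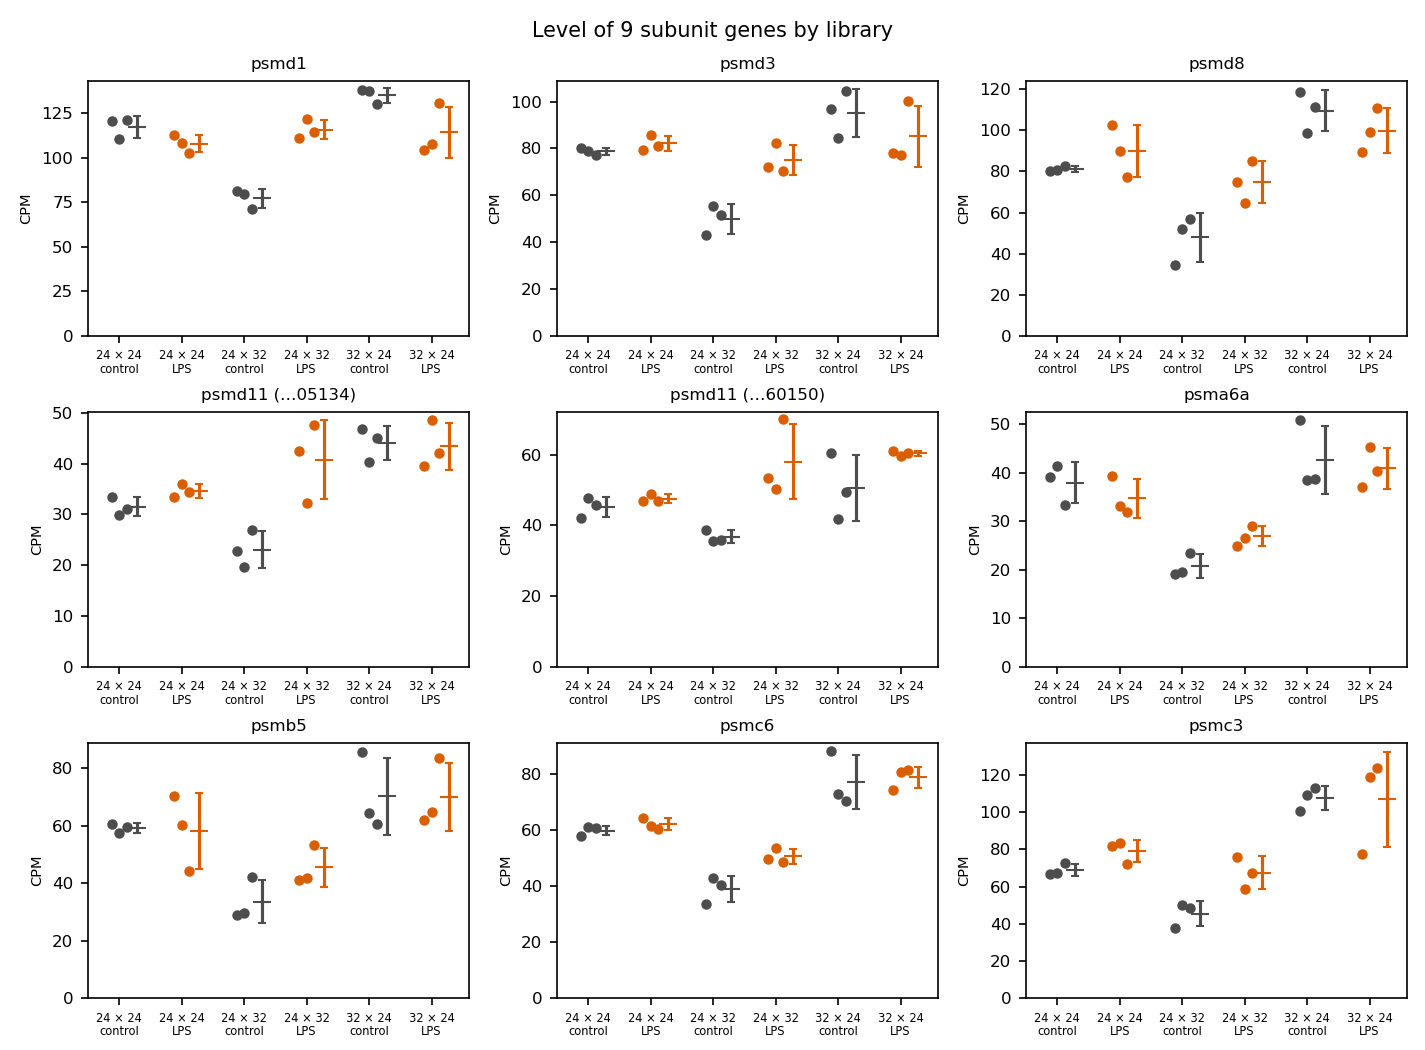
CPM of 9 subunit genes in each library (points) by group, with the mean and SD (n = 3). In psmd1 the 24 × 32 °C controls lie at 80.98, 79.5 and 70.98 CPM, apart from both the 24 × 24 °C controls and their own challenged pools, whereas in psma6a the challenged pools at 24 × 32 °C, at 24.99, 26.5 and 29.1 CPM, lie below all 24 × 24 °C libraries.

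LPS did not give a called proteasome gene in the other temperature combinations. At 24 × 24 °C none of the 51 was up-regulated or down-regulated by edgeR, with 0.235% of all genes higher and 0.191% lower, and DESeq2 called none either. At an unadjusted p under 0.05 there was 1 higher and 1 lower, where 3.26% and 3.57% of all genes were. The median log2 fold change was -0.02 over the 36 26S subunit genes, which spanned -0.21 to 0.20. The psmd1 level was 112, 108 and 103 CPM after LPS beside 120.3, 110.2 and 121 CPM in controls, and its log2 fold change of -0.12 had a 95% interval of -0.34 to 0.10. The psmd8 level was 102, 90.1 and 77.04 CPM, at 0.16 with an interval of -0.15 to 0.46. At 32 × 24 °C no proteasome gene was called by edgeR or DESeq2 either, with 0.0191% of all genes higher and 0.0127% lower, and at an unadjusted p under 0.05 none was higher and 1 lower, where 3.24% and 2.14% of all genes were. The smallest adjusted p of edgeR was 0.913, for psmd1, which had 104, 107 and 130.5 CPM after LPS and 138, 137 and 129.9 CPM in controls. The second psmd11 row (ENSDARG00000060150) had 61.002, 59.7 and 60.4 CPM after LPS and 60.5, 41.8 and 49.5 CPM in controls, at 0.25 (edgeR adjusted p = 0.986). In both genes the groups overlapped. At 24 × 24 °C the groups did not overlap in 2 higher and 3 lower proteasome genes, where 9.24% and 9.59% of all genes did so, and at 32 × 24 °C 1 was lower without overlap, where 4.11% of all genes were.

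Whether the LPS effect at 24 × 32 °C differed from that at 24 × 24 °C was tested directly. No proteasome gene was called by edgeR, the smallest adjusted p being 0.215, while 1 of all 15722 genes was (0.00636% higher and 0% lower). At an unadjusted p under 0.05, 16 of the 51 proteasome genes had a greater LPS effect at 24 × 32 °C and none a smaller one, where 4.54% of all genes were greater. The difference was above 0 in all 36 26S subunit genes, between 0.14 and 0.70 on the log2 scale, and in 51.5% of all genes. These 36 genes share the same libraries and tend to vary together, so they are not independent and the count carries no test. For psmd1 the difference was 0.70 with a 95% interval of 0.39 to 1.02. DESeq2 called psmd1 alone of the 51 proteasome genes, at an adjusted p of 0.0101, among 30 of all genes. For the first psmd11 row (ENSDARG00000005134) the difference was 0.69, with an interval of 0.25 to 1.122. For the LPS effect at 32 × 24 °C against that at 24 × 24 °C edgeR and DESeq2 called none, and no proteasome gene had an unadjusted p under 0.05, where 1.42% of all genes were higher and 1.15% lower. The smallest p values there belonged to psmd9, at 0.69 with an interval of -0.03 to 1.41, and psme3, at -0.54 with an interval of -1.099 to 0.02.

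In unchallenged larvae the incubation temperature was compared as the 32 × 24 °C controls against the 24 × 24 °C controls. Only the former had been cooled before the challenge period, so incubation and cooling cannot be told apart. No proteasome gene was called by edgeR, beside 0.216% of all genes higher and 0.299% lower, and at an unadjusted p under 0.05 there were 12 higher and 2 lower, where 5.99% and 6.69% of all genes were. The median log2 fold change was 0.21 over the 36 26S subunit genes, of which 34 had a value above 0, as had 50.9% of all genes. All 32 × 24 °C pools were above all 24 × 24 °C pools in 23 of the 51, 21 of them 26S subunit genes, where 10.0% of all genes were higher without overlap. The ATPase psmc3 had 66.97, 67.5 and 72.8 CPM at 24 × 24 °C and 101, 109 and 113 CPM at 32 × 24 °C, without overlap, at a log2 fold change of 0.64 ± 0.15 (SE; edgeR adjusted p = 0.0629). DESeq2 called psmc3 and psme4a here, at adjusted p of 0.00591 and 0.0124, among 240 of all genes. The study also lists both as differentially expressed in this comparison, psmc3 as higher and psme4a as lower. With edgeR psmc3 was called without LPS library 2 of 24 × 32 °C and without LPS library 1 of 32 × 24 °C, and psme4a without control library 1 of 24 × 32 °C. Without both 32 × 24 °C libraries numbered 1, an alternative chosen after seeing the data, edgeR called psmc3 alone of the 51, at an adjusted p of 0.0184. It called 130 of all genes there. No tissue marker of the 15 tested was called. Skeletal muscle markers summed to 31803 to 34547 CPM at 24 × 24 °C and to 21715 to 30405 CPM at 32 × 24 °C. The exocrine pancreas marker was at 210 to 347 CPM and 22.1 to 125 CPM, and the globin row matched at 0.235 to 0.385 CPM and 0. The other tissue markers overlapped between the groups. The part of these tissues in the proteasome values was not tested.

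The same temperature comparisons in challenged larvae gave few calls. In 24 × 32 °C against 24 × 24 °C LPS-challenged larvae no proteasome gene was called by edgeR or by DESeq2, while 2.01% of all genes were higher and 1.74% lower, and at an unadjusted p under 0.05 there were 1 higher and 6 lower, where 10.5% and 8.85% of all genes were. The median over the 51 was -0.07. The lowest p values were those of psme4a (0.76, edgeR adjusted p = 0.117) and psme2 (-0.58, edgeR adjusted p = 0.123), which belong to the activators below. Of the genes that fell in warmed controls, psmd1 was at 0.10 in this comparison with an interval of -0.12 to 0.33, psmd8 at -0.27 with -0.59 to 0.04, psmb5 at -0.38 with -0.74 to -0.01 and psma6a at -0.38 with -0.70 to -0.06. These intervals are somewhat too narrow, so an end near 0, as for psmb5, does not set the value apart from 0. In 32 × 24 °C against 24 × 24 °C LPS-challenged larvae 1 proteasome gene was called, psme4a, which was down-regulated, where 0.178% of all genes were higher and 0.0890% lower. The summed 26S level was 1.15 times as high there, with overlap between the groups. All 32 × 24 °C pools were above all 24 × 24 °C pools in 14 of the 51 genes, where 8.09% of all genes were.

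The activators bind the ends of the core in place of the 19S cap. The genes psme1 and psme2 code for the subunits of PA28αβ, which mammals induce with interferon, psme3 for the nuclear PA28γ, and psme4 with its copy psme4a for PA200. None was called with LPS at any temperature or in warmed controls. The psme4a level was 27.3, 26.7 and 41.4 CPM in controls and 44.1, 49.7 and 47.2 CPM after LPS at 24 × 24 °C, at 0.55 (edgeR adjusted p = 0.724). At 24 × 32 °C it was 64.2, 41.5 and 33.6 CPM in controls and 74.97, 61.1 and 103 CPM after LPS, at 0.77 (edgeR adjusted p = 0.152). At 32 × 24 °C it was 9.17, 13.7 and 19.7 CPM and 18.04, 21.1 and 11.1 CPM, so that every pool of larvae kept at 32 °C was below every pool of larvae kept at 24 °C.

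Between LPS-challenged larvae of 32 × 24 °C and 24 × 24 °C the log2 fold change of psme4a was -1.48 ± 0.30 (SE; edgeR adjusted p = 0.0489), and between the controls -1.20 ± 0.30 (SE; edgeR adjusted p = 0.0806). The call in challenged larvae was lost when 1 of 11 libraries was left out (any LPS library of 24 × 24 °C or 32 × 24 °C, control library 1 or 2 of 24 × 24 °C, control library 2 of 24 × 32 °C, LPS library 1 of 24 × 32 °C or control library 2 of 32 × 24 °C), with adjusted p of edgeR from 0.0244 to 0.238 over the 18 fits. Without both 32 × 24 °C libraries numbered 1 the count stayed at 1, but the gene called was psmc3, up-regulated at an adjusted p of 0.0284 by edgeR. The other copy, psme4, was at -0.18 and -0.19 in these comparisons and was not called. The ratio of psme4a to psme4 was 0.631 ± 0.114 in 24 × 24 °C controls and 0.988 ± 0.104 after LPS (SD, n = 3), 0.944 ± 0.377 and 1.57 ± 0.416 at 24 × 32 °C. At 32 × 24 °C the ratio was 0.331 ± 0.145 in controls and 0.397 ± 0.0876 after LPS. It was thus lowest in larvae kept at 32 °C, while psme4 levels stayed between 41.9 ± 7.94 and 50.8 ± 2.31 CPM as group means. The difference between the copies was not tested.

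The psme1 level was 10.2, 7.75 and 13.2 CPM in controls and 7.49, 7.19 and 6.16 CPM after LPS at 24 × 24 °C, where the groups did not overlap but the adjusted p of edgeR was 0.739. It was 8.58, 9.21 and 6.23 CPM and 6.39, 4.61 and 5.29 CPM at 24 × 32 °C, at a log2 fold change of -0.59 (edgeR adjusted p = 0.405), and -0.12 at 32 × 24 °C. The psme2 level was 23.2, 28.3 and 23.1 CPM in challenged larvae at 24 × 24 °C and 19.8, 12.3 and 18.96 CPM at 24 × 32 °C, at -0.58 (edgeR adjusted p = 0.123), and all pools of the latter were lower. The psme3 level was 27.5, 32.5 and 31.3 CPM in 24 × 24 °C controls and 17.9, 28.02 and 20.1 CPM in 24 × 32 °C controls, at -0.47 (edgeR adjusted p = 0.196), with overlap.

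**Figure D4:**
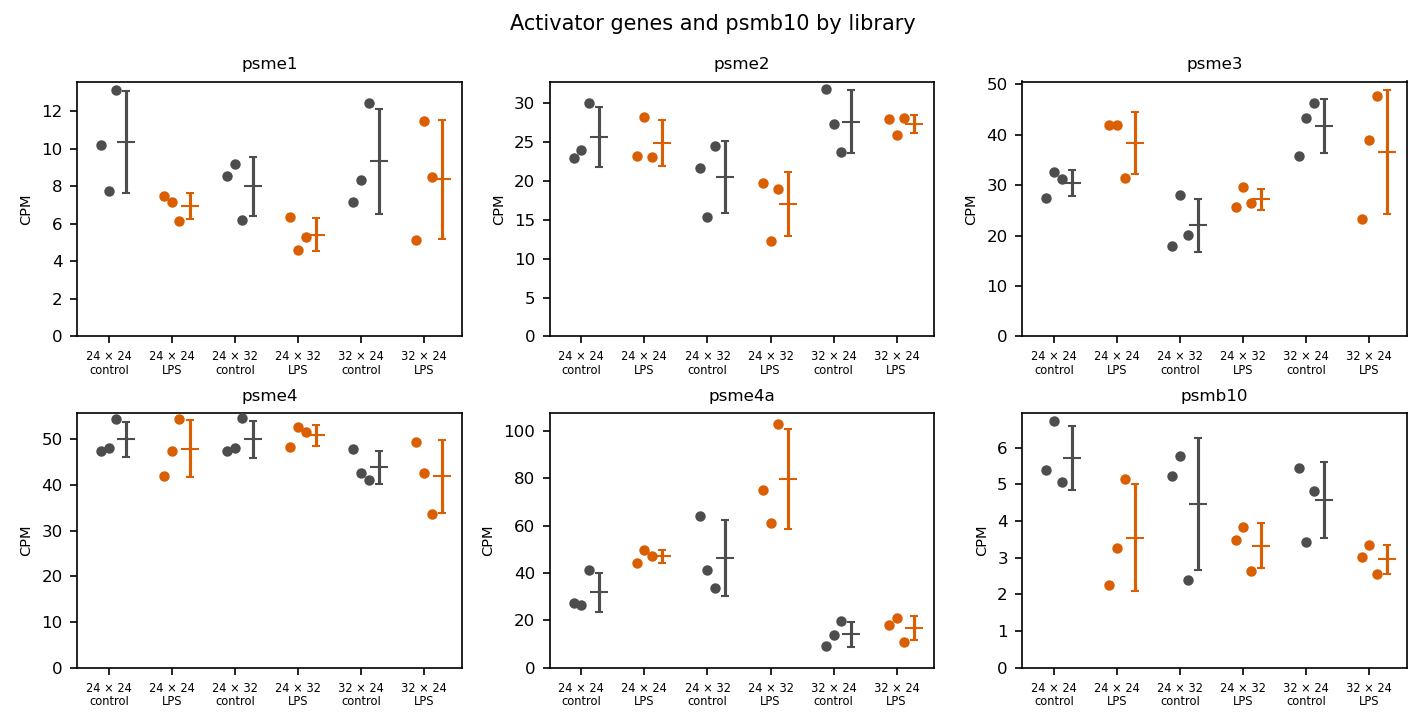
CPM of the activator genes and psmb10 in each library (points) by group, with the mean and SD (n = 3). The psme4a panel shows the 6 libraries of larvae kept at 32 °C at the bottom, with 9.17, 13.7 and 19.7 CPM in controls, and the 24 × 32 °C challenged pools at the top, with 74.97, 61.1 and 103 CPM.

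The inducible β genes were barely detected in these larvae. Over all 18 libraries psmb8 had 13 counts, psmb9 15, psmb12 16, psmb13a 6 and the thymus-type psmb11b 1, which put these 5 under the minimum of 50. Counts in control and challenged libraries were 8 and 5 for psmb8, 8 and 7 for psmb9, 9 and 7 for psmb12. Just inside the minimum were psmb10 with 279 counts, psmc3ip with 295 and psma6l with 355. The psmb10 level was 5.39, 6.71 and 5.05 CPM in controls and 2.26, 3.25 and 5.14 CPM after LPS at 24 × 24 °C, at -0.82 (edgeR adjusted p = 0.506). At 24 × 32 °C it was 5.22, 5.76 and 2.40 CPM and 3.49, 3.84 and 2.65 CPM, at -0.45 (edgeR adjusted p = 0.621), and at 32 × 24 °C 5.45, 3.42 and 4.83 CPM and 3.01, 3.33 and 2.55 CPM, at -0.62 (edgeR adjusted p = 0.998). Values after LPS were the lower ones on average in all 3 combinations, but none passed the test. The groups overlapped at 24 × 24 °C and 24 × 32 °C and not at 32 × 24 °C. At these counts an LPS effect on the inducible genes with fewer counts than psmb10 was not detectable.

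None of the remaining members was called by edgeR with all 18 libraries in any comparison. The inhibitor psmf1 (PI31) was at 10.2 ± 3.78 CPM in 24 × 32 °C controls and 6.501 ± 2.08 CPM in challenged larvae (SD, n = 3), at -0.62 (edgeR adjusted p = 0.336). Of the core assembly chaperones, psmg1 (0.09), psmg2 (-0.01) and psmg3 (0.31) did not have the negative values of most subunit genes in warmed controls, where psmg3 was at 13.7, 15.8 and 15.4 CPM at 24 × 24 °C and 20.2, 19.2 and 16.3 CPM at 24 × 32 °C, without overlap. Of the cap assembly chaperones, psmd10 was at -0.92 (edgeR adjusted p = 0.0605) there and at 0.77 (edgeR adjusted p = 0.168) in the 32 × 24 °C controls, with no overlap in either case. In warmed controls edgeR called it lower under 4 alternatives, with the libraries of the comparison only (adjusted p = 0.0471), without LPS library 2 of 24 × 32 °C (0.0457), without control library 1 of 32 × 24 °C (0.0494) and without both 32 × 24 °C libraries numbered 1 (0.0426). The others, psmd5 and psmd9, were at -0.19 and -0.39 in warmed controls. The 2 genes that are not subunits, psmc3ip and psme3ip1, were at -0.79 (edgeR adjusted p = 0.199) and -0.04 (edgeR adjusted p = 0.913) in the same comparison.

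How far the genes moved together was described by the correlation of each with the mean log2 CPM of the 26S subunit genes, leaving the gene itself out, over the 18 libraries. These libraries share group means and depth, so the values are a description. The median Pearson r of the 36 was 0.86, 26 of them were above 0.8, and the closest were psmd8 (0.98), psmb4 (0.95) and psmb1 (0.95). The least alike were psma6l (0.15), psma6 (0.24) and psmd4 (0.43). With the group means removed the median was 0.60. The other 15 members had a median of 0.18, from psmd10 at 0.86 to psme4 at -0.49 and psme4a at -0.62, and the 15671 genes that are no members had a median of -0.01, with 1.53% above 0.8. Of those non-members tuba8l4 (0.96), tars1 (0.95), nsfl1c (0.94), vmp1 (0.94), vcp (0.93) and tmed2 (0.93) were most alike.

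**Figure D5:**
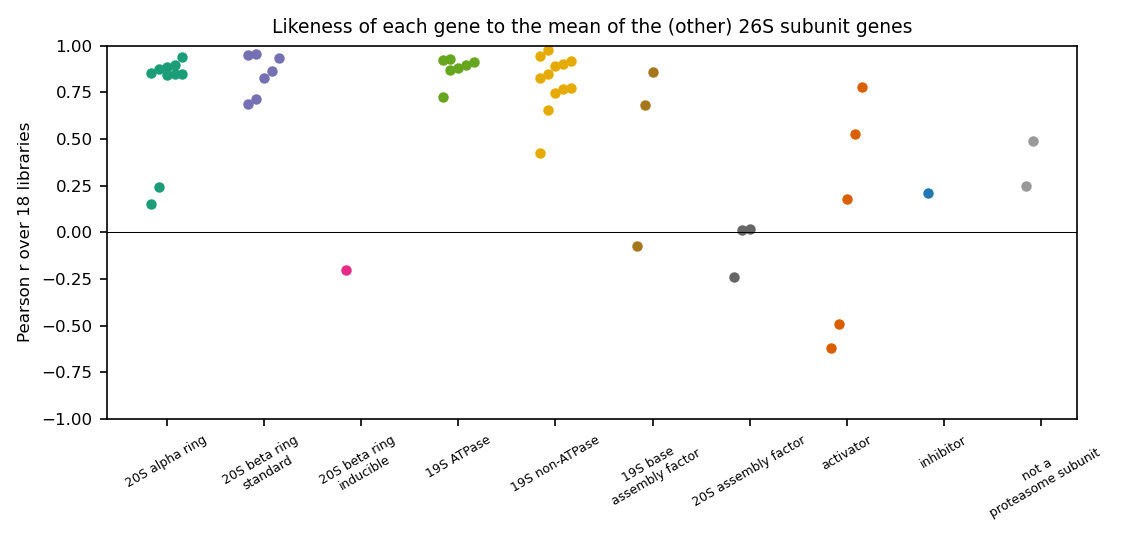
Pearson r over the 18 libraries between each of the 51 proteasome genes (points, by class) and the mean log2 CPM of the 26S subunit genes, the gene itself left out. Most α, β, ATPase and non-ATPase genes lie above 0.8, with psma6l (0.15) and psma6 (0.24) low, while psme4a (-0.62) and psme4 (-0.49) lie below 0.

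The copies stood apart in level in psma6, and in psmd4 only narrowly. The ratio of psma6a to psma6 was 0.712, 0.788 and 0.625 in the 24 × 24 °C controls and 0.425, 0.395 and 0.462 in the 24 × 32 °C controls, all lower in the latter, and it was 0.430, 0.486 and 0.340 in challenged larvae at 24 × 32 °C and 1.09, 0.849 and 0.575 in the 32 × 24 °C controls. The low ratio was thus shared by all 6 libraries at 24 × 32 °C. In the warming comparison psma6 was at -0.15 (edgeR adjusted p = 0.648), beside -0.88 for psma6a. The ratio of psmd4b to psmd4 was 1.46 ± 0.354 in the 24 × 24 °C controls and 1.04 ± 0.0531 in the 24 × 32 °C controls (SD, n = 3). By library it was 1.108, 1.816 and 1.457 in the former and 1.098, 1.014 and 1 in the latter, so the ranges all but met. The difference between copies was not tested, and reads that both copies share could have been split in either way.

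Another 8 lists of genes that surround the proteasome in protein turnover and folding held 117 names, of which 110 matched a row and 96 were tested. In the warmed controls p97, the segregase that pulls tagged proteins out of complexes, was down-regulated with its cofactor p47. The p97 gene vcp was at -0.56 ± 0.11 (SE; edgeR adjusted p = 0.00506) and the p47 gene nsfl1c at -0.99 ± 0.14 (SE; edgeR adjusted p = 0.00026). They were the 2 genes called of the 15 in the list of shuttle and p97 factors, where 3.86% of all genes were called lower. The vcp levels were 209.8, 221 and 247 CPM at 24 × 24 °C and 151, 150.5 and 159 CPM at 24 × 32 °C, and those of nsfl1c 62.4, 57.4 and 67.01 CPM and 27.2, 35.3 and 31.2 CPM, so that neither gene overlapped between the groups. Both were up-regulated by LPS at 24 × 32 °C, against those same control libraries, vcp to 218, 229.8 and 211 CPM at 0.52 ± 0.11 (SE; edgeR adjusted p = 0.0205) and nsfl1c to 45.3, 49.96 and 48.95 CPM at 0.62 ± 0.15 (SE; edgeR adjusted p = 0.0336). The warming calls were made whichever library was left out. Left out in turn, 4 of the 18 libraries ended the LPS call of vcp, all from the comparison itself and every 24 × 32 °C control among them. That of nsfl1c was lost without any 1 of 6 libraries, which are all those of the comparison. The adjusted p of edgeR ranged from 0.0122 to 0.0951 for vcp and from 0.02 to 0.154 for nsfl1c.

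Of 11 further partners of the proteasome 1 was up-regulated and 3 were down-regulated in the warmed controls. Over all genes tested 4.13% were called higher and 3.86% lower there, and no list was tested as a set. Those that fell were the cap deubiquitinase uchl5 (-0.89, edgeR adjusted p = 0.0143), the core maturation factor pomp (-0.56, edgeR adjusted p = 0.0403) and the scaffold ecpas (-0.56, edgeR adjusted p = 0.0204), and the one that rose was the cap-bound ubiquitin ligase ube3c (0.73, edgeR adjusted p = 0.0104). Another list held 15 tested genes, ngly1 and transcription factors linked to proteasome genes or stress. Of these 15, 3 were up-regulated, nfe2l1b (0.89, edgeR adjusted p = 0.00654), hsf2 (0.59, edgeR adjusted p = 0.0344) and maff (0.43, edgeR adjusted p = 0.0492), and 1 was down-regulated, nfe2l3 (-0.60, edgeR adjusted p = 0.0203). The other copy, nfe2l1, was tested and not called, and the median over the 15 was -0.06. Of 7 genes for ubiquitin precursors and the activating enzyme rps27a rose (0.34, edgeR adjusted p = 0.0435). Of 7 genes for the COP9 signalosome, which resembles the proteasome lid, cops5 fell (-0.57, edgeR adjusted p = 0.0358). Of these genes nfe2l1b was called whichever library was left out. Control library 1 of 24 × 32 °C was among those without which ube3c, uchl5, ecpas, hsf2 and nfe2l3 lost their calls. The call of cops5 was lost without any 1 of 6 libraries, which are all those of the comparison. Those of pomp, rps27a and maff were lost without 10, 13 and 14 of the 18 in turn.

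Heat shock genes were the list with the most calls in warmed controls, 11 of 26 up-regulated, beside 4.13% of all genes, and none down-regulated, with a median log2 fold change of 0.97. Control library 1 of 24 × 32 °C stood apart in part of the list. The HSP70 co-chaperone bag3, not called and named after its values were seen, was at 86.6 CPM in that library and at 12.3 and 19.7 CPM in libraries 2 and 3, and the small heat shock gene hspb1, called, at 139 CPM beside 53.7 and 39.8 CPM. Without that library 9 of the 11 were called, hspb1 and dnajb1a no longer among them, 1 gene of the list was called lower (ahsa1, ENSDARG00000028664, at -3.88, edgeR adjusted p = 0.0430) and the median was 0.45. Among the 11 were serpinh1 (ENSDARG00000019949), a collagen chaperone, at 4.57 (edgeR adjusted p = 0.000405), hsp90aa1.1 at 3.66 (edgeR adjusted p = 0.000378), hspa8 (ENSDARG00000037403) at 3.56 (edgeR adjusted p = 5.26e-06) and dnaja1 at 1.48 (edgeR adjusted p = 0.000105). Of 7 subunit genes of the cytosolic chaperonin CCT, cct4 (0.55, edgeR adjusted p = 0.0144) and cct8 (0.59, edgeR adjusted p = 0.00181) rose. These 4 heat shock genes and cct8 were called whichever library was left out. The call of cct4 was lost without 4 of the 18, all of them libraries of the comparison.

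Beyond vcp and nsfl1c, LPS at 24 × 32 °C gave 1 call in the 8 lists, where 1.48% of all genes were called higher. It was the mitochondrial chaperone hspd1 at 0.81 (edgeR adjusted p = 0.0125), a call lost without control library 2 or 3 of 24 × 32 °C. None of the 96 listed genes was called by edgeR with LPS at 24 × 24 °C or at 32 × 24 °C. The same held between the 32 × 24 °C and 24 × 24 °C controls. The study, with DESeq2, does list some of them as differentially expressed. Among these are hsp90aa1.1, lower with LPS at 24 × 24 °C, and serpinh1 (ENSDARG00000019949), higher, and hsp70l, lower, between those controls. In challenged larvae, 24 × 32 °C against 24 × 24 °C, 10 of 26 heat shock genes and 4 of 7 chaperonin genes were up-regulated, beside 2.01% of all genes, as were ube3c (0.86, edgeR adjusted p = 0.00592), nfe2l1b (0.77, edgeR adjusted p = 0.0238) and the shuttle factor ubqln4 (0.51, edgeR adjusted p = 0.0179), while no proteasome gene was called there. With a library left out 8 to 12 heat shock genes and 2 to 5 chaperonin genes were called there. The chaperonin count was 2 without LPS library 1 of 24 × 24 °C or LPS library 2 of 24 × 32 °C, and cct7 was lost without 14 of the 18 libraries. The calls of nfe2l1b and ubqln4 were each lost without 5 of the 18 libraries, all 5 of them libraries of the comparison. Between challenged larvae of 32 × 24 °C and 24 × 24 °C the single call was hsf2 at 0.88 (edgeR adjusted p = 0.0356), which was lost without 7 of the 18 libraries.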

How the data were processed

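The deposited values are raw counts per Ensembl gene in 18 libraries, which the authors made from paired-end RNA-seq reads with bcl2fastq, cutadapt 1.12, TopHat2 2.1.0 on GRCz10 and HTSeq 0.6.1p1, per the submitters' notes, without normalization. FastQC 0.11.5, SAMtools and DESeq2 1.11.1 are also named there. Whether HTSeq used strand is not given in the sources, so overlapping antisense genes cannot be told apart. Gene names came from a gene table, for 26154 genes, and the study's own pairing of IDs with psma6a and psme4a. The gene psmd2 was not analysed here, and calls in warmed controls in the list of interferon and MHC class I genes are not reported here.

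The analysis used edgeR 4.0.16, limma 3.58.1 and DESeq2 1.42.0 in R 4.3.3. Genes were filtered with filterByExpr (minimum count 10, minimum total 15), TMM-scaled and modelled by group (6 means) with edgeR's robust quasi-likelihood over all 18 libraries, which share 1 estimate of the spread (common coefficient of biological variation 0.176). Log2 CPM used a prior count of 2. The scripts were tested on simulated counts. Samples were grouped by the temperatures and treatment in their titles. The labels do not state the order of the temperatures, which were read as incubation and then challenge, the order used in the series design. The members, the gene lists, the tissue markers and the tests were chosen with earlier results of these data known. Named were up to 6 called members per direction and comparison by smallest adjusted p (where none was called, the 2 with the smallest p), the members listed in the study's tables, the inducible types and activator copies, and up to 4 called or 2 uncalled genes of each list; other members are named by class to account for all. Other alternatives were another scaling, no filter, libraries of the comparison only, counts thinned to the smallest library (seed 20), DESeq2, a replicate block, and each library left out. Only at 32 × 24 °C did the deviations of every same-numbered pair of libraries correlate positively, at 0.195 to 0.559. A pair of unlike numbers there, control library 3 and LPS library 2, stood at 0.386. The block changed no call of the LPS effect on a proteasome gene at 32 × 24 °C. Promoter sequences and motifs were not examined. No column of other samples was used.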

Additional observations from a re-analysis of the deposited data

How the results depend on the processing

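None of 2240 alternative values of the single genes tested again reversed, 277 fell short of the threshold and 17 passed it. None of 228 alternative medians over the members moved by more than the SD between libraries (0.088 on the log2 scale), but 6 changed sign, all of medians at most 0.064 from 0 (the LPS effects at 24 × 24 °C and 32 × 24 °C and their difference). These exclude plain library totals, on which the median in warmed controls was -0.57, beside -0.39. Most of the alternatives above left out 1 library, often 1 outside the comparison, which can hardly move a difference between group means. The number of members called with LPS at 24 × 32 °C was 5 above, beside 233 of all genes higher and 106 lower. It was 2 with no low-count filter (332 of all genes) and 1 with the libraries of the comparison only (298 of all genes). It was 10 without both 32 × 24 °C libraries numbered 1 (chosen after seeing the data, 828 of all genes), and 0 to 8 with a library left out. For the 24 × 32 °C controls against the 24 × 24 °C controls it was 6 to 21 with a library left out, beside 18, 12 with a fold change of at least 1.5 as well, and 13 to 24 under the other settings. For the 32 × 24 °C controls it was 2 with DESeq2 (240 of all genes), 1 without both libraries numbered 1 (130 of all genes) and 0 to 1 with a library left out, beside 0. For 24 × 32 °C against 24 × 24 °C LPS-challenged larvae it was 1 with the libraries of the comparison only (psme4a, adjusted p = 0.0439 by edgeR, 491 of all genes called), beside 0. For 32 × 24 °C against 24 × 24 °C LPS-challenged larvae it was 0 with no filter (42 of all genes called) and 0 to 1 with a library left out, beside 1. For the difference of the LPS effects at 24 × 32 °C and 24 × 24 °C it was 1 with DESeq2 (30 of all genes), beside 0. The log2 ratio of the summed 26S level between the 24 × 32 °C and 24 × 24 °C controls was -0.47 and moved to -0.66 on plain library totals, where all genes shifted by -0.19. The causes were not tested.

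The block on replicate numbers was fitted because the groups share numbers 1 to 3. Deviations of same-numbered libraries correlated at -0.10 to 0.117 at 24 × 24 °C and at -0.03 to 0.182 at 24 × 32 °C, and no source ties a number to a repeat of the experiment, though it may mark one, so the numbers were not taken as pairs there. With the block on all 18 libraries 5 members were called with LPS at 24 × 32 °C and 16 in the 24 × 32 °C controls, and 0 in place of 1 between challenged larvae of 32 × 24 °C and 24 × 24 °C. With the block on the 6 libraries of a comparison, chosen after seeing the data, 1 was called with LPS at 24 × 32 °C and 1 with LPS at 24 × 24 °C (psme4a, 0.61, adjusted p = 0.0376 by edgeR), where the fit without it called 0. That block called 455 of all genes at 24 × 32 °C and 442 at 24 × 24 °C. The main fit called 233 higher and 106 lower at 24 × 32 °C, and 37 higher and 30 lower at 24 × 24 °C. The block changed no call of the LPS effect at 32 × 24 °C. With 3 pools a group and fewer counts in 5 of the 6 groups, smaller changes may go uncalled.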
